A study of Mus musculus with 25 samples.

Results

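MHC class II antigen presentation in microglia was followed through 7 genes: H2-Aa, H2-Ab1, H2-Eb1, Cd74, Ciita, H2-DMa and H2-DMb1. They were chosen by gene symbol, and the symbols were matched to the Ensembl identifiers of the deposited count table. All 7 were found among the 43411 genes of the table, and all 7 passed the filter on low counts that left 12908 genes for testing. RNA was sequenced from microglia sorted by FACS as CD11b+ CD45med cells from the brains of 23 mice at 3 months of age, with 1 library per mouse. The 6 WT mice (2 females and 4 males) were Bin1flox/wt without Cre, the 7 Het-cKO mice (4 females and 3 males) were Bin1flox/wt with Thy1-Cre, and the 10 Homo-cKO mice (5 females and 5 males) were Bin1flox/flox with Thy1-Cre. Every group thus carried at least a single floxed Bin1 allele, and Thy1-Cre drives deletion of the floxed gene in neurons. Recombination in the sorted cells was not tested. The floxed allele came from a B6.129S6 stock and the transgene from an FVB/N stock, so the mice could carry chromosome segments from several inbred strains.

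MHC class II molecules present peptides from ingested material to CD4+ T cells. An alpha and a beta chain pair in the endoplasmic reticulum around the invariant chain Cd74, which fills the groove and directs the complex to endosomes. Proteases there trim Cd74 to a short peptide, which H2-DM, a dimer of H2-DMa and H2-DMb1 or H2-DMb2, exchanges for antigenic peptides. Ciita is the coactivator that binds no DNA itself and switches these genes on through RFX, CREB and NF-Y factors seated on the X and Y boxes of their promoters. Microglia of the healthy brain are known for low class II levels, while macrophages at the borders of the brain and dendritic cells express more.

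In the mouse (GRCm38, the same build as mm10), 5 of the 7 genes lay in the class II region of chromosome 17. H2-DMa was annotated at chr17:34119541-34139101, H2-DMb1 at chr17:34153072-34160230, H2-Ab1 at chr17:34257689-34269419, H2-Aa at chr17:34282744-34287823 on the minus strand and H2-Eb1 at chr17:34305867-34316674. Ciita lay at chr16:10480059-10528418 and Cd74 on a further chromosome. All 7 were protein-coding genes, and H2-Aa was the only member on the minus strand.

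RefSeq promoters (GRCm38.p6, from 250 bases before to 50 bases after the start) were given for 4 of the 7 members, H2-Aa, H2-Eb1, H2-DMa and H2-DMb1. H2-Ab1, Cd74 and Ciita had no entry. The promoters were searched on both strands for ATTGG, the core of the Y box, and for ACNGATG, a stretch of the X box, and the letters of these motifs are in capitals below. The windows are shown because H2-Eb1, called higher in Homo-cKO than in WT mice, and its neighbour H2-Eb2, called lower, share this layout, and so do H2-DMb1 and its neighbour H2-DMb2, neither of which was called.
H2-Eb1 (plus strand, chr17:34305769-34305817): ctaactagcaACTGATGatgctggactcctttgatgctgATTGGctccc
H2-Eb2 (plus strand, chr17:34325536-34325584): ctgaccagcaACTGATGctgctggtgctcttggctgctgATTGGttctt
H2-DMb1 (plus strand, chr17:34153090-34153139): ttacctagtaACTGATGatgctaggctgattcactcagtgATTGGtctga
H2-DMb2 (plus strand, chr17:34145119-34145168): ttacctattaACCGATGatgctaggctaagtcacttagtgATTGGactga
H2-Aa (minus strand, chr17:34287862-34287916): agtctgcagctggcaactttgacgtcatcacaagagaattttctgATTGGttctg

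In H2-Eb1 and H2-Eb2 22 bases separated the motifs, and in H2-DMb1 and H2-DMb2 23 bases did. Of the motifs searched, the H2-Aa window held only ATTGG, and the only ACNGATG of its promoter lay far upstream on the other strand. The search used a single spelling, so a promoter without ACNGATG is not shown to lack an X box. For H2-DMa, which has 2 listed starts, neither motif was found at the first start and only ATTGG at the second. Of 27025 promoters of the same length (the first listed start of each gene), 37.9% held ATTGG, 9.84% held ACNGATG, and 0.2% held both in this order with 10 to 35 bases between, a spacing that was set after these promoters had been read. A match is a description of the letters and not a measured site.

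Total counts per mouse ranged from 10812969 to 16734846, so that 1 count was worth between 0.0599 and 0.0887 CPM. This unit, used for all levels here, divides a count by the effective library size after TMM normalization. Bin1 itself was measured at 699 ± 88.3 CPM (SD) in the 6 WT, 692 ± 40.6 in the 7 Het-cKO and 481 ± 130 in the 10 Homo-cKO mice, and it was lower in Homo-cKO than in WT mice (log2 fold change -0.60, SE 0.12, adjusted p = 0.00173, edgeR). All 10 microglia markers (such as P2ry12 and Tmem119) were detected at summed levels of 58526 to 94634 CPM per mouse. Fos, an immediate-early gene, spread from 0.363 to 1459 CPM among Homo-cKO mice and reached 1.73 CPM in WT mice. The Homo-cKO mice had animal numbers in the 03xx range (6 mice) or the 04xx range (4 mice), whereas every WT and Het-cKO mouse was numbered 02xx. Genotype and number range therefore cannot be told apart in any comparison with Homo-cKO mice.

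RNA of H2-Aa, H2-Ab1, H2-Eb1 and Cd74, named the surface complex genes here, was higher in Homo-cKO than in WT microglia. The increases ran from 2.03-fold for Cd74 to 4.68-fold for H2-Eb1. Protein was not measured, so the level of class II at the cell surface is not known. The surface complex genes and Ciita, 5 of the 7 members, were called higher at an adjusted p under 0.05 and a fold change over 1.5. Of all tested genes, 3.4% were called in either direction and 1.65% higher. Ciita did not pass the filter on low counts when only the Homo-cKO and WT groups were used, and its call depended on the settings given below. H2-DMa passed the adjusted p alone, which gives 6 of 7 members against 12.7% of all tested genes, and H2-DMb1 passed neither. The median log2 fold change over the 7 members was 1.27 and that over all tested genes 0.01. In bulk RNA of sorted cells, more cells of a type that expresses class II and more RNA per cell cannot be told apart.

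**Figure D1:**
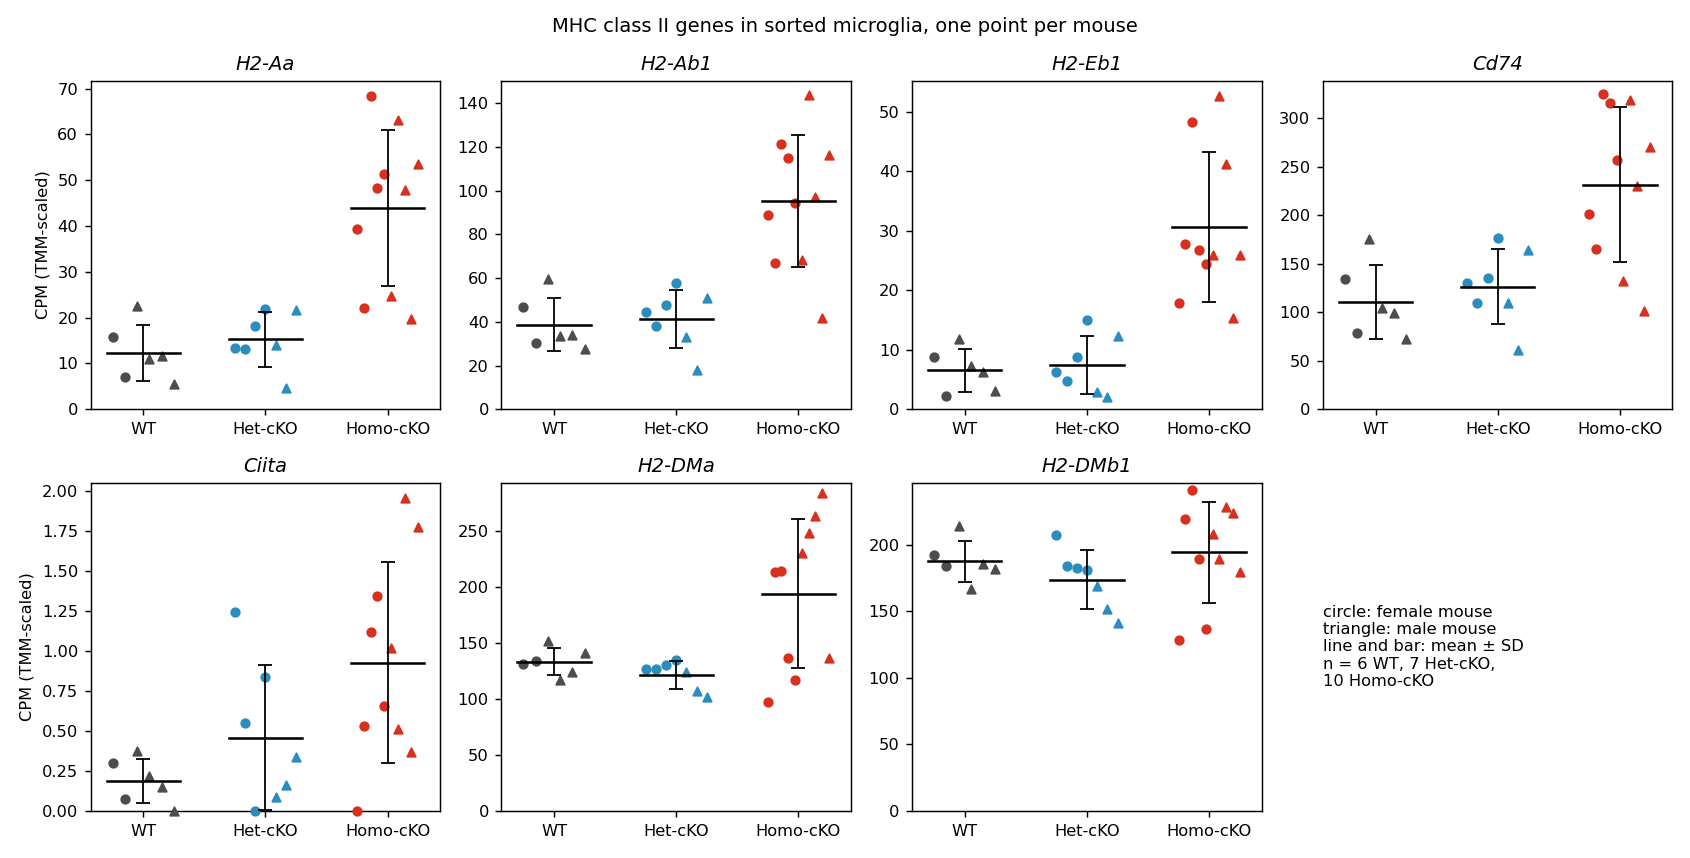
CPM of the 7 members by genotype, each point a mouse (circles females, triangles males), with the mean and SD as line and bar (6 WT, 7 Het-cKO and 10 Homo-cKO mice). For H2-Eb1 every Homo-cKO point lies above every other point, and for H2-DMa the Homo-cKO points fall into an upper and a lower set.

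H2-Eb1, which encodes the beta chain of the I-E molecule, showed the clearest separation. Its level was 2.20 CPM at the lowest, 6.72 at the median and 11.8 at the highest in WT, 2.07, 6.22 and 15.0 in Het-cKO, and 15.3, 26.4 and 52.7 in Homo-cKO mice. All 10 Homo-cKO mice lay above all 13 other mice, which held for 0.403% of all tested genes. The log2 fold change against WT was 2.23 (SE 0.40, adjusted p = 0.000834). The alpha chain gene of I-E is annotated as a pseudogene, H2-Ea-ps, and was too low to be tested. A complete I-E molecule therefore cannot be inferred from H2-Eb1 RNA.

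H2-Aa encodes the alpha chain of the I-A molecule. It ranged from 5.55 to 22.5 CPM in WT (median 11.3), from 4.70 to 21.8 in Het-cKO (median 14.0) and from 19.7 to 68.5 in Homo-cKO mice (median 48.1). Homo-cKO males M4 and M1 (19.7 and 24.8 CPM) and female F2 (22 CPM) were the lowest of their group, and 8 of the 10 Homo-cKO mice exceeded every other mouse. The log2 fold change was 1.82 (SE 0.33, adjusted p = 0.000943).

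H2-Ab1, the I-A beta chain, was expressed at 27.5 to 59.5 CPM in WT (median 33.8), 17.9 to 57.6 in Het-cKO (median 44.6) and 41.9 to 144 in Homo-cKO mice (median 95.7). Only Homo-cKO male M4 overlapped with the other genotypes, and the remaining 9 Homo-cKO mice lay above them. The log2 fold change was 1.27 (SE 0.24, adjusted p = 0.00115).

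Cd74, the invariant chain, was the most abundant of the surface complex genes, with 72.1 to 175 CPM in WT (median 102), 60.9 to 176 in Het-cKO (median 130) and 101 to 325 in Homo-cKO mice (median 244). Here 7 of 10 Homo-cKO mice exceeded all others, and F2, M1 and M4 fell within the range of the controls. The log2 fold change was 1.02 (SE 0.25, adjusted p = 0.00803).

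Ciita, the coactivator, was close to the limit of detection. It had 0 to 5 counts in WT mice (0 to 0.375 CPM, median 0.186), 0 to 15 in Het-cKO mice (0 to 1.24 CPM, median 0.338) and 0 to 29 in Homo-cKO mice (0 to 1.95 CPM, median 0.836). Of the Homo-cKO mice 8 exceeded every WT mouse, 3 exceeded every WT and Het-cKO mouse, and female F1 had no Ciita count although its H2-Aa, H2-Ab1 and H2-Eb1 lay above all controls. A count of 0 allows up to 3 counts, and this limit covers counting error only. The log2 fold change of 2.27 (SE 0.76) had an adjusted p of 0.0489, just under the threshold. The call was lost on leaving out any of 18 of the 23 mice in turn (all 6 WT, 8 Homo-cKO and 4 Het-cKO mice), with adjusted p values of up to 0.111, and also with limma-voom (adjusted p = 0.147) and without the filter on low counts (adjusted p = 0.0713).

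H2-DM edits the peptide in the groove, and neither of its member chains passed both thresholds against WT. H2-DMa was at 117 to 152 CPM in WT (median 133), 102 to 135 in Het-cKO (median 127) and 97.2 to 284 in Homo-cKO mice (median 214.5), and its log2 fold change of 0.56 (SE 0.17, adjusted p = 0.0339) was below the fold threshold. That adjusted p was over 0.05 with limma-voom (0.0615), robust estimation (0.0519) and only the groups compared (0.0511). H2-DMb1 was at 167 to 214.2 CPM in WT (median 185), 142 to 208 in Het-cKO (median 181) and 129 to 241 in Homo-cKO mice (median 199), with a log2 fold change of 0.05 (SE 0.11, adjusted p = 0.830). For H2-DMa 6 Homo-cKO mice lay above all others and 2 lay below all WT mice, and for H2-DMb1 4 lay above and 2 below.

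Scaled to exonic length (CPM per kilobase, means over mice), H2-DMb1 (111), Cd74 (66.0) and H2-DMa (38.7) led in WT mice, followed by H2-Ab1 (15.1), H2-Eb1 (3.37), H2-Aa (3.23) and Ciita (0.0196). The SDs of H2-Eb1 (1.85) and H2-Aa (1.63) exceeded the difference between them, whereas the other neighbours in this order differed by more than the SD of either gene. In Homo-cKO mice the means were 138 for Cd74, 116 for H2-DMb1, 56.4 for H2-DMa, 37.1 for H2-Ab1, 15.8 for H2-Eb1, 11.6 for H2-Aa and 0.0972 for Ciita. Cd74 and H2-DMb1 had changed places in that order, with SDs of 47.7 and 22.6 that exceeded the difference between them, and H2-Eb1 (SD 6.46) and H2-Aa (SD 4.49) again overlapped, as did H2-DMa (SD 19.4) and H2-Ab1 (SD 11.8). The lengths joined all annotated exons of a gene, so genes with rarely used exons appear lower on this scale.

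Between Homo-cKO and Het-cKO mice, which both carry Thy1-Cre, the same 4 surface complex genes were called higher, together with H2-DMa, which gives 5 of 7 members against 6.62% of all tested genes. The log2 fold changes were 1.54 (SE 0.30) for H2-Aa, 1.23 (SE 0.22) for H2-Ab1, 2.05 (SE 0.37) for H2-Eb1, 0.89 (SE 0.23) for Cd74 and 0.63 (SE 0.17) for H2-DMa, with adjusted p between 0.000453 and 0.00825. Ciita differed by 1.06 (SE 0.67, adjusted p = 0.266) and H2-DMb1 by 0.16 (SE 0.11, adjusted p = 0.296). This comparison shares the Homo-cKO mice with the one above and is not independent of it.

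Between Het-cKO and WT mice 0 of the 7 members were called or had an unadjusted p under 0.05. The log2 fold changes of the surface complex genes were 0.28 (SE 0.35) for H2-Aa, 0.05 (SE 0.25) for H2-Ab1, 0.18 (SE 0.42) for H2-Eb1 and 0.13 (SE 0.26) for Cd74. Ciita had the largest difference, 1.21 (SE 0.85, adjusted p = 0.762), with 3 of 7 Het-cKO mice above every WT mouse. Over the whole table edgeR called 0 of 12908 genes, of which 998 had an unadjusted p under 0.05, and limma-voom and DESeq2 called 0 of the 7 members.

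**Figure D2:**
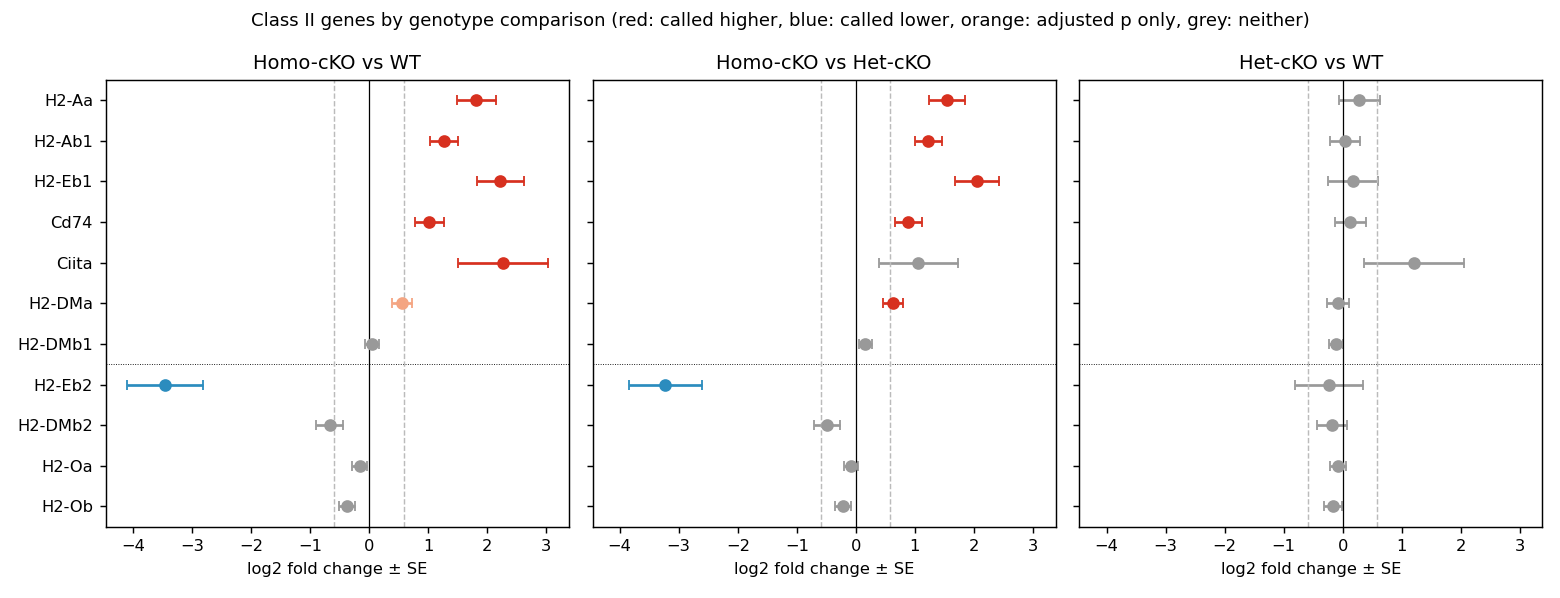
Log2 fold change with its SE for the 7 members (above the dotted line) and 4 other class II genes (below it) in the 3 genotype comparisons, all on the same axis. Dashed lines mark a 1.5-fold change. H2-Aa, H2-Ab1, H2-Eb1 and Cd74 lie to the right of it in both comparisons of Homo-cKO mice, and H2-Eb2 lies far to the left.

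The increase was present in both animal-number ranges of Homo-cKO mice. Against WT, H2-Aa, H2-Ab1, H2-Eb1, Cd74 and H2-DMa were called higher in the 03xx mice (5 of 7 members, against 3.66% of all tested genes), and the first 4 of these in the 04xx mice (4 of 7, against 2.54%). The log2 fold changes in 03xx and 04xx mice were 1.84 and 1.79 for H2-Aa, 1.31 and 1.21 for H2-Ab1, 2.44 and 1.81 for H2-Eb1 and 1.01 and 1.04 for Cd74. None of the members differed between the 2 ranges, against 0.356% of all tested genes, and the H2-Eb1 difference was -0.63 (SE 0.43, adjusted p = 0.694).

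By sex, H2-Aa, H2-Ab1, H2-Eb1 and H2-DMa were called higher in Homo-cKO than in WT males (4 of 7 members, against 2.16% of all tested genes), and none in females (against 0.294%), where only 2 WT mice were available and 4 of 7 members had an unadjusted p under 0.05. The estimates in females were not smaller for the surface complex genes, with log2 fold changes of 2.01 (SE 0.57) for H2-Aa, 1.33 (SE 0.40) for H2-Ab1, 2.40 (SE 0.68) for H2-Eb1 and 1.25 (SE 0.42) for Cd74, against 1.73, 1.27, 2.19 and 0.90 in males. The difference of the genotype effect between the sexes passed the test for none of the 7 members (adjusted p of 0.992 or more in edgeR, and 0 calls over all genes, where 644 genes had an unadjusted p under 0.05). Across genotypes, 0 of 7 members were called between males and females by edgeR or limma-voom, and 0 had an unadjusted p under 0.05.

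The class II genes outside the 7 members followed another pattern. H2-Eb2, a beta chain gene next to H2-Eb1, was lower in Homo-cKO mice, H2-DMb2, H2-Oa and H2-Ob did not pass the test, and the median log2 fold change of these 4 genes was -0.52. H2-Oa and H2-Ob encode H2-DO, which restrains H2-DM, and differed by -0.16 (SE 0.13, adjusted p = 0.453) and -0.38 (SE 0.14, adjusted p = 0.0722). H2-Eb2 was at 0.525 to 1.25 CPM in WT and 0.170 to 1.35 in Het-cKO mice, and 7 of 10 Homo-cKO mice had no count, which allows up to 3 counts or 0.180 to 0.266 CPM in a Homo-cKO mouse. The remaining Homo-cKO mice F1, F4 and F5 had 2, 6 and 5 counts, and the fitted log2 fold change was -3.46 (SE 0.64, adjusted p = 0.00112), a value that depends on the counts of 0.

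H2-DMb2, the second DM beta chain, was at 33.4 to 46.5 CPM in WT (median 41.5), 27.1 to 44.3 in Het-cKO (median 39.3) and 11.8 to 48.9 in Homo-cKO mice (median 21.0). Over all Homo-cKO mice its log2 fold change was -0.67 (SE 0.23, adjusted p = 0.0610). It was lower in the 03xx mice (-1.23, SE 0.17, adjusted p = 0.000101) but differed by -0.10 (SE 0.19, adjusted p = 0.820) in the 04xx mice, and the difference between the ranges was itself called (1.13, SE 0.19, adjusted p = 0.00238). H2-DMb1 and H2-DMb2 share sequence: of the different 50-base stretches in annotated transcripts, 22.7% of those of H2-DMb1 and 25.9% of those of H2-DMb2 also occurred in another gene, mostly the other DM beta gene, so reads can be split between them wrongly. H2-DMa shared 8.43% with its neighbour Brd2, Ciita 1.46% with Dexi and H2-Aa 0.514%, and H2-Ab1, H2-Eb1 and Cd74 shared none.

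H2-DMa and H2-DMb2 fell into separate sets of levels among the Homo-cKO mice, which is given as a description. In F2, F3, M1, M2, M3 and M4, H2-DMa stood at 214.2 to 284 CPM, H2-DMb2 at 11.8 to 24.8 CPM and H2-Eb2 at 0 counts. In F1, F4, F5 and M5, H2-DMa stood at 97.2 to 137 CPM and H2-DMb2 at 31.4 to 48.9 CPM, levels like those of WT and Het-cKO mice, and M5 alone among them had no H2-Eb2 count. H2-DMb1 was also higher in the former set, at 189.5 to 241 CPM, than in the latter, at 129 to 189.3 CPM. These H2-DMb1 sets nearly touched, and WT mice had 167 to 214.2 CPM. Whether reads were wrongly split between H2-DMb1 and H2-DMb2 was not tested. The sets did not match the number ranges. M4 was the only 04xx mouse of the former set, and F1 the only 03xx mouse of the latter. H2-Ea-ps, the alpha chain pseudogene of the I-E molecule, which was looked up after these values were seen and was too low to be tested, had 32 counts in F1, 14 in F4, 4 in F5 and 0 in the other 7 Homo-cKO mice, and at most 5 in any WT or Het-cKO mouse.

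In both of these sets H2-Eb1 lay above all controls. It was 17.9, 26.8, 24.4 and 25.9 CPM in F1, F4, F5 and M5, and between 15.3 and 52.7 in the other 6 Homo-cKO mice, against at most 15.0 in controls. H2-Aa was 39.3 to 53.6 CPM in the former 4 mice and 19.7 to 68.5 in the latter 6. Cd74, on chromosome 18, was 200.96, 316, 257 and 270 CPM in F1, F4, F5 and M5, all above the highest control at 176. It was 166, 325, 132, 319, 230 and 101 CPM in F2, F3, M1, M2, M3 and M4. The Homo-cKO mice within the range of the controls (F2, M1 and M4 for Cd74, F2 and M4 for H2-Aa and M4 for H2-Ab1) all belonged to the set with high H2-DMa. Which strain's copy of the class II region, or of the region around Cd74, each mouse carried was not tested.

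**Figure D3:**
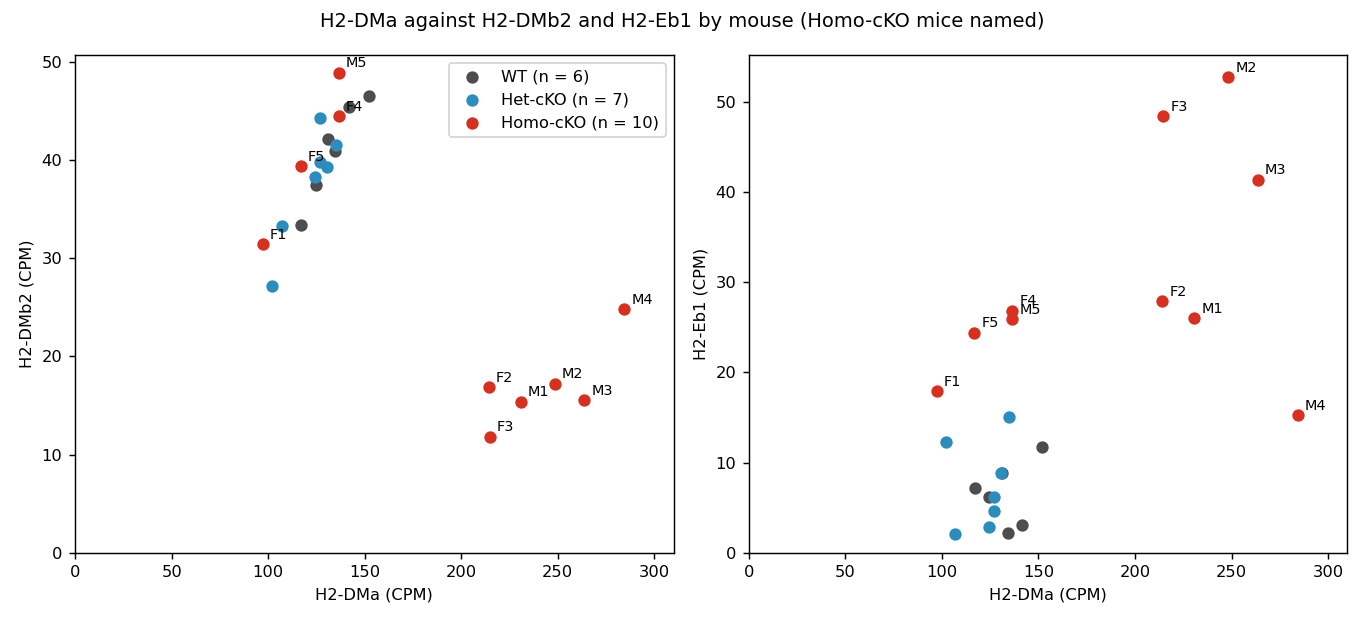
H2-DMb2 (left) and H2-Eb1 (right) against H2-DMa, all in CPM, each point a mouse and Homo-cKO mice named. Homo-cKO mice F2, F3, M1, M2, M3 and M4 lie apart at high H2-DMa and low H2-DMb2, while all 10 Homo-cKO mice lie above the controls for H2-Eb1.

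In the stretch of chromosome 17 from H2-Oa to H2-Eb2 (249.1 kilobases), a set taken after the values were seen, 14 genes were tested. H2-Ab1, H2-Aa and H2-Eb1 were called higher and H2-Eb2 lower. Brd2, H2-DMa and Psmb9 passed the adjusted p with small increases and Tap2 with a small decrease. Among the tested genes H2-Ab1, H2-Aa and H2-Eb1 stand side by side, and H2-Eb2 follows directly.

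Of the factors that bind class II promoters, 0 of 7 were called by edgeR between Homo-cKO and WT mice, with 2 at an unadjusted p under 0.05. Rfx5, which with Rfxap and Rfxank forms the X box complex, was 0.30 higher on the log2 scale in Homo-cKO than in WT mice (SE 0.09, adjusted p = 0.0373), and Creb1 0.33 (SE 0.07, adjusted p = 0.00499), both below the fold threshold. The median of the 7 factors was 0.12.

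Interferon gamma is the classical inducer of Ciita. Ifng itself was listed at 0 in all 23 mice, and 0 of the 8 tested genes of its pathway were called, with 2 at an unadjusted p under 0.05. Only RNA of the sorted cells was counted, so Ifng RNA of other cells would not be seen. Exposure of the microglia to interferon gamma was not tested. Ifngr1, a chain of its receptor, was lower by a log2 fold change of -0.50 (SE 0.07, adjusted p = 8.96e-05), and Irf1, a transcription factor of the pathway, differed by 0.02 (adjusted p = 0.901). Of the 10 tested GTPases and chemokines that interferon gamma induces, 0 were called, although 8 had positive values and 3 an unadjusted p under 0.05, and Irgm1, an immunity-related GTPase, passed the adjusted p alone (0.27, SE 0.07, adjusted p = 0.0180). The median of this list was 0.24. For the promoter factors, the interferon gamma lists and the 3 lists of the next paragraph, limma-voom also called 0 genes.

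Of the class I genes, none of 10 were called (3 at an unadjusted p under 0.05), the median was -0.04, and Tap2 (-0.41, adjusted p = 0.00253), Tapbp (-0.34, adjusted p = 0.0134) and Psmb9 (0.34, adjusted p = 0.00463), which serve peptide transport, loading and cleavage, passed the adjusted p below the fold threshold. Of 6 tested proteases and ubiquitin ligases that act on Cd74 or on class II molecules, none were called, and Ctss (-0.21, adjusted p = 0.0492) and Lgmn (-0.38, adjusted p = 0.00152), which cleave Cd74 or antigens, were lower below the fold threshold. Of 5 tested co-stimulatory ligands none were called, and Cd80 had the smallest p (0.19, adjusted p = 0.385). Ifi30 and Jak2 were not analysed here.

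Markers of other cells that carry class II were measured beside these results. Of 14 border macrophage markers, 13 were tested, 1 was called, and the median log2 fold change between Homo-cKO and WT mice was 0.003. The called gene was Dab2, an endocytic adaptor, with 16.2 ± 3.31 CPM in WT, 18.8 ± 3.53 in Het-cKO and 30.1 ± 7.99 in Homo-cKO mice (log2 fold change 0.89, SE 0.17, adjusted p = 0.00141). Mrc1, a defining marker, was listed at 0 in all mice. Whether its RNA was absent or was missed by annotation or counting cannot be told from these counts. Cd163 and Lyve1, both scavenger or hyaluronan receptors, were at most 8.37 CPM. The summed level of the list was 291 to 507 CPM in WT, 307 to 476 in Het-cKO and 313 to 488 in Homo-cKO mice. Most of that sum was Stab1, a scavenger receptor, with means of 324, 354 and 292 CPM in the 3 groups.

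Of 6 tested dendritic cell markers none were called (median -0.15), Xcr1 had the smallest p (1.44, adjusted p = 0.113), and the summed levels were 34.3 to 45.1 CPM in WT and 29.1 to 40.5 in Homo-cKO mice. Of 4 tested monocyte markers 2 were higher and 2 lower (median 0.56). Ccr2, the chemokine receptor of inflammatory monocytes, was the only one called, as higher (4.92 ± 0.701 CPM in WT, 5.80 ± 2.36 in Het-cKO and 12.5 ± 3.89 in Homo-cKO mice, log2 fold change 1.28, SE 0.23, adjusted p = 0.000812). Means in WT and Homo-cKO mice were 1.54 and 3.58 CPM for Chil3, 0.864 and 0.791 for Plac8, and 1.69 and 1.06 for Fn1. The summed levels of the list, which include Ccr2, were 6.99 to 13.5 CPM in WT and 10.96 to 26.9 in Homo-cKO mice. Of 2 tested B cell markers none were called, Cd79b having the smaller p (-0.33, adjusted p = 0.0528), and no T or NK cell marker had enough counts for a test. Neutrophil markers had a median of 1.67 with 0 of 7 called, S100a9 having the smallest p (2.17, adjusted p = 0.221), and their mean log2 CPM varied from -0.41 to 3.89 among WT and from -0.46 to 4.63 among Homo-cKO mice. The part of the Ccr2 and Dab2 increases in the class II result was not tested.

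Microglia markers were called in 0 of 10 cases and passed the adjusted p in 5, all lower, the largest being Cx3cr1 (-0.51, adjusted p = 0.000182). Of the tested markers of other brain cells, 3 of 5 neuron markers (Snap25, Nrgn and Gad1), 1 of 4 astrocyte markers (Aldoc) and 1 of 5 oligodendrocyte markers (Mobp) were called lower, and 0 of 2 endothelial markers were called (Pecam1, -0.49, adjusted p = 0.0209). Of 9 tested immediate-early genes 8 were called higher, with log2 fold changes between 0.94 for Atf3 and 8.75 for Fos, and limma-voom called 4 of them. Against WT, 8 of 9 were called in the 03xx mice (median 3.88) and 0 of 9 in the 04xx mice (median 0.36), and 7 were called lower in 04xx than in 03xx mice. Their summed level was 8649 to 13030 CPM in F1, F2, M1 and M2 and 578 to 993 CPM in the other 6 Homo-cKO mice. With the mean log2 CPM of the immediate-early genes as a covariate, the increases were 2.00 for H2-Aa, 1.32 for H2-Ab1, 2.20 for H2-Eb1 and 1.17 for Cd74 (adjusted p between 0.00281 and 0.0151). That covariate spanned 3.73 to 4.34 in WT, 3.78 to 4.07 in Het-cKO and 4.23 to 9.33 in Homo-cKO mice. Its slope thus rests mostly on Homo-cKO mice, and the fit cannot separate it from genotype or number range. The part of the immediate-early genes in the class II result was not tested.

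Border macrophage marker and class II levels were also set side by side in each mouse. The mean log2 CPM of the 13 tested border macrophage markers was 1.85 ± 0.73 (SD) in WT, 2.29 ± 0.61 in Het-cKO and 1.92 ± 0.65 in Homo-cKO mice, whereas the mean log2 CPM of H2-Aa, H2-Ab1, H2-Eb1 and Cd74 was 4.49 ± 0.62, 4.66 ± 0.69 and 6.11 ± 0.54. Homo-cKO female F2 had the lowest border marker value of all 23 mice (0.53) and a class II value of 5.68, above the highest WT mouse (5.36) and Het-cKO mouse (5.42). With the border marker value as a covariate, the log2 fold changes between Homo-cKO and WT mice were 1.87 for H2-Aa, 1.29 for H2-Ab1, 2.31 for H2-Eb1 and 1.05 for Cd74 (adjusted p between 0.000194 and 0.00286), and without it 1.82, 1.27, 2.23 and 1.02. The marker value is a mean over genes and no count of cells, and the part of border macrophages in the class II result was not tested.

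**Figure D4:**
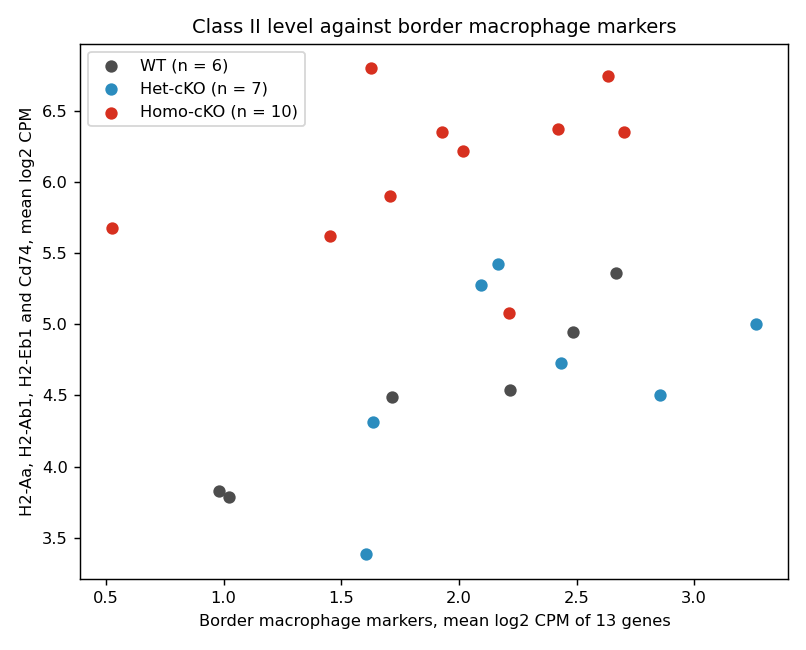
Mean log2 CPM of H2-Aa, H2-Ab1, H2-Eb1 and Cd74 against the mean log2 CPM of 13 border macrophage markers, each point a mouse. Border marker values span 0.53 to 2.70 in Homo-cKO, 0.98 to 2.67 in WT and 1.61 to 3.26 in Het-cKO mice. For class II, 9 of the 10 Homo-cKO points lie above all other mice.

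Across the 23 mice, after the mean of each genotype had been subtracted, the 4 surface complex genes varied together. Pearson's r was 0.97 between H2-Ab1 and Cd74, 0.95 between H2-Aa and Cd74, 0.94 between H2-Aa and H2-Ab1, and between 0.79 and 0.81 for the 3 pairs with H2-Eb1. Each of these 6 pairs had a permutation p of 1e-05, the smallest that 100000 permutations can give, and an adjusted p of 3.5e-05 over 21 pairs, and Spearman's rho was between 0.80 and 0.97. Without the 2 mice farthest from the median r stayed between 0.74 and 0.97, and centred by genotype and number range it was between 0.81 and 0.97. H2-DMb1 had r between 0.01 and 0.26 with these 4 genes (adjusted p of 0.289 or more), and H2-DMa, whose Homo-cKO values fell into separate sets, was given no pooled r. Between H2-DMa and H2-DMb1, r was 0.82 in the 6 WT and 0.86 in the 7 Het-cKO mice (exact permutation p of 0.0514 and 0.0165, unadjusted). Without the 2 mice of each group farthest from its H2-DMa median, r was -0.49 and 0.06.

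**Figure D5:**
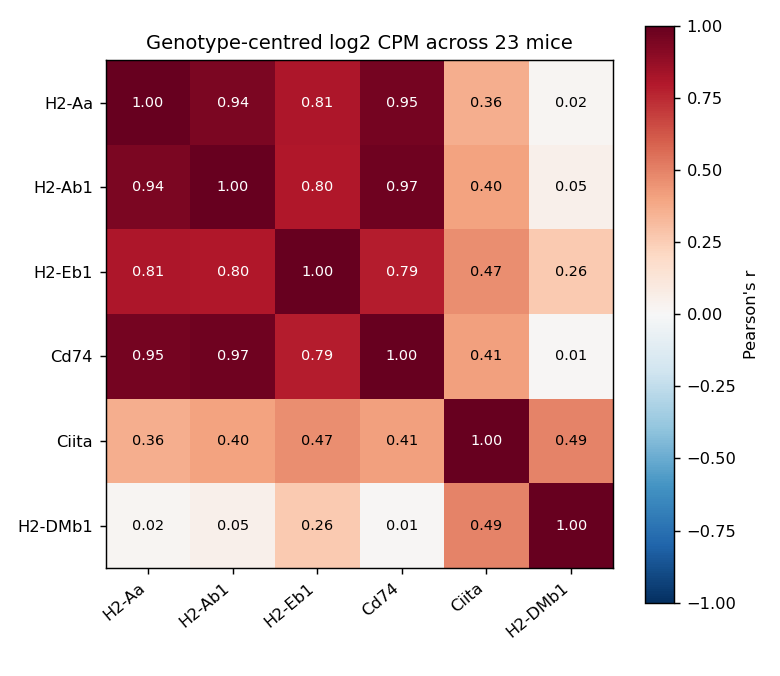
Pearson's r between the genotype-centred log2 CPM of 6 members over 23 mice, from -1 (blue) to 1 (red). H2-Aa, H2-Ab1, H2-Eb1 and Cd74 form a block with r of 0.79 to 0.97, while Ciita and H2-DMb1 lie outside it.

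Ciita had no relation with its target genes that passed the test. Genotype-centred r with Ciita was 0.36 for H2-Aa (rho 0.41), 0.40 for H2-Ab1 (rho 0.52), 0.47 for H2-Eb1 (rho 0.48), 0.41 for Cd74 (rho 0.51) and 0.49 for H2-DMb1 (rho 0.43), with adjusted p of r between 0.111 and 0.287 and of rho between 0.0723 and 0.163 over 52 relations by permutation, so none of the 6 members passed. Without the 2 mice farthest from the median of Ciita, r was between 0.33 and 0.50 for these genes. Within the 6 WT mice r was 0.97 for H2-Aa and 0.94 for Cd74 (exact permutation p of 0.00556 and 0.00694, adjusted p of 0.0516 each), and within the 10 Homo-cKO mice 0.30 and 0.33 (permutation p of 0.408 and 0.360, adjusted p of 0.561 and 0.549). The difference between genotypes in these correlations was not tested, and at up to 5 Ciita counts per WT mouse the values rest on few reads.

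With the border macrophage markers, genotype-centred r was 0.61 for H2-Aa (rho 0.52), 0.51 for H2-Eb1 (rho 0.50), 0.51 for Cd74 (rho 0.54), 0.48 for H2-Ab1 (rho 0.53), 0.34 for Ciita (rho 0.47) and 0.25 for H2-DMb1 (rho 0.42). The smallest adjusted p was 0.0516 for r (H2-Aa, permutation p = 0.00339) and 0.0723 for rho, so none of the 7 members passed over the 52 relations. Leaving out the 2 mice farthest from the median gave r of 0.56 for H2-Aa, 0.57 for H2-Eb1, 0.50 for Cd74 and 0.44 for H2-Ab1. In the 6 WT mice r was 0.94 for H2-Aa, 0.97 for H2-Eb1, 0.94 for Cd74 and 0.88 for H2-Ab1, and in the 10 Homo-cKO mice 0.52, 0.19, 0.36 and 0.28. A difference between these was not tested.

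Outside the members, the 10 tested genes whose genotype-centred log2 CPM was most like the mean of the 4 surface complex genes over the 23 mice were 2900089D17Rik (r = 0.79), Cybb (0.75), Mgl2 (0.73), Tmem50a (0.73), Selenos (0.72), Gm18853 (0.72), Itpripl1 (0.71), Gm37718 (0.71), Adipor2 (0.70) and Ms4a7 (0.70). For comparison, the median r of all tested genes was -0.01 and 1% of them exceeded 0.53. Cybb, the catalytic subunit of the phagocyte NADPH oxidase, was at 6.46 CPM on average, and Mgl2, a C-type lectin of macrophages and dendritic cells, at 3.97 CPM. Between Homo-cKO and WT mice Mgl2 was called higher (log2 fold change 1.41, SE 0.41, adjusted p = 0.0257), Cybb differed by 1.03 (SE 0.35, adjusted p = 0.0543) and Ms4a7, a border macrophage marker, by 0.003 (SE 0.44, adjusted p = 0.997). Tmem50a (-0.29, adjusted p = 0.00590), Selenos (-0.41, adjusted p = 0.000998), Itpripl1 (-0.38, adjusted p = 0.00200) and Adipor2 (-0.49, adjusted p = 0.00405) passed the adjusted p as lower in Homo-cKO mice, below the fold threshold.

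The median r with the mean of the 4 surface complex genes was 0.41 for neutrophil markers, the highest of the lists outside the members, 0.39 for border macrophage markers, 0.33 for class I genes, 0.33 for microglia markers, 0.02 for the class II promoter factors, -0.04 for the interferon gamma pathway and -0.12 for immediate-early genes. The border macrophage markers ranged widely, from -0.06 for Dab2 to 0.60 for Cbr2, 0.69 for Pf4 and 0.70 for Ms4a7, and the others were at 0.51 or less. The highest r was 0.49 among neutrophil markers, 0.48 among class I genes and 0.45 among microglia markers. The 5 genes most like Ciita were Tspan4 (r = 0.77), Gtpbp3 (0.72), Gm14410 (0.72), Rfxank (0.71) and Npc1 (0.69). Rfxank, a subunit of the RFX complex that Ciita docks to on class II promoters, was at 26.3 CPM on average and differed by -0.10 between Homo-cKO and WT mice (SE 0.09, adjusted p = 0.525). These genes were picked as the highest of 12908 correlations, which are given as a description.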

How the data were processed

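The authors sequenced sorted microglia as 50-base single-end reads, aligned them with OmicSoft OSA4 (mm10, gene models of Ensembl R84), and deposited RSEM expected counts per gene, normalized neither for depth nor for length. Versions and multi-mapping settings are not given in the sources used here. The library kit does not mark strand, so overlapping genes cannot be told apart by strand. The reference is from C57BL/6J, and the effect of other strains' alleles on counts of H2 genes was not tested. Of 25 labelled samples, 2 had no column.

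Expected counts were rounded, filtered with filterByExpr, TMM-normalized and tested in edgeR 4.0.16 (R 4.3.3) by the quasi-likelihood test with genotype and sex, with Benjamini-Hochberg adjustment over 12908 genes. Genes were called at an adjusted p under 0.05 and a fold change over 1.5. Standard errors are the log2 fold change divided by the root of the F statistic. Log2 CPM used a prior count of 2. Symbols were missing for 482 identifiers. Correlations used exact permutations within groups of up to 7 mice and 100000 permutations otherwise.

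Alternatives were limma 3.58.1 (voom), DESeq2 1.42.0, other normalizations, filters and covariates, and leaving out each mouse. The scripts were tested on simulated data. Figures used matplotlib 3.10.9. Named genes were all members, the other class II genes, up to 4 called genes or else the smallest p of each list, and the genes most like the members. Members and gene lists were chosen with earlier results of these data known.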

Additional observations from a re-analysis of the deposited data

How the results depend on the processing

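H2-Aa, H2-Ab1, H2-Eb1 and Cd74 stayed called higher in Homo-cKO than in WT mice in all 152 alternative values, which covered 15 settings and 23 left-out mice for each gene (log2 fold changes of 0.89 to 2.48, adjusted p of at most 0.0363). The number of members called was 4 to 6 under the 15 settings and 4 to 6 on leaving out each mouse, against 5. Against Het-cKO mice it was 4 to 5 in both, and between Het-cKO and WT mice 0 throughout, as for the sex effect, its interaction with genotype and the number ranges with limma-voom and without a filter. H2-DMa passed the fold threshold with library totals (0.66), in the 03xx mice (0.67) and without any of Homo-cKO F1, F4, F5 and M5 or WT F2, with values of 0.49 to 0.62 over all left-out mice. Its adjusted p also missed 0.05 with the immediate-early covariate (0.145) and in the 04xx mice alone (0.270), and without any of 11 mice (at most 0.0806): WT F1, M1, M2, M3 and M4 and Homo-cKO F2, F3, M1, M2, M3 and M4. H2-DMb1 turned to -0.045 in the 04xx mice alone. H2-DMb2 was called lower with limma-voom (-0.81), without a filter (-0.67), in the 03xx mice (-1.23) and without Homo-cKO F4, F5 or M5, and was -0.59 to -0.89 over all left-out mice. Ciita was lost in the 04xx mice alone (adjusted p = 0.0960) beside the cases named above, and did not pass the filter on low counts with only the groups compared or in the 03xx mice alone. H2-Eb2 did not pass it with only the groups compared or at a CPM of at least 1 in at least 6 mice. Over all other gene lists, 15 genes were called, 9 with limma-voom, 6 with the immediate-early covariate, 7 in the 04xx mice alone and 31 without the fold threshold, alternatives that were added after the data were seen, and 14 to 17 on leaving out each mouse. The causes were not tested. Centring and prior count left the count of passing correlations with Ciita or the border markers at 0. With 0 to 29 counts, depth limits Ciita and H2-Eb2.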
